A study of Mus musculus with 2 samples.

Results

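The genes of programmed cell death described here are 37 members of the Bcl2 family, the caspases, the inhibitor of apoptosis proteins, the death receptors and the necroptosis kinases. They were taken as a list of symbols, and each was read from the probe sets that the platform annotation assigns to that gene alone. Of the 37 genes, 35 had such a probe set, out of 18193 genes in all, and 87 probe sets read them. Bax and Ripk1 had no probe set of their own in the annotation and were not analysed here. The members were separated by role into 8 pro-survival genes, 26 pro-death genes and 3 genes of the tumour necrosis factor receptor complex (Tnfrsf1a, Tradd and Ripk1), which can signal either way.

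The cells were CD34-positive epithelial cells sorted from skin tumours, and RNA of a wild-type mouse and of a K14CreER:Rosa-VEGF-164 mouse was each hybridised to 1 Affymetrix Mouse Genome 430 2.0 array. In the latter, the Cre recombinase is driven by the keratin 14 promoter of basal keratinocytes, and the VEGF-164 transgene sits at the Rosa locus. Mice of both genotypes received the carcinogen DMBA at postnatal days 23, 25 and 27, then repeated doses of the tumour promoter TPA, and DMBA again at 7 weeks of age. The labels do not give the induction of the Cre, the age at sorting or the number of animals or tumours behind each array. With 1 array per genotype there was no replicate error and no test between genotypes, and a gene was counted as apart by a size rule of at least 2-fold.

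Apoptosis can start inside or outside the cell. In the mitochondrial route, BH3-only proteins sense damage or lost growth signals, block the guardians of the Bcl2 type and free Bak1 and its relatives to open the outer mitochondrial membrane, after which cytochrome c, Apaf1 and caspase-9 form the apoptosome. In the receptor route, Fas and related receptors recruit Fadd and caspase-8, and where caspase-8 is held back, Ripk3 and Mlkl can carry out necroptosis. In skin these routes serve the removal of ultraviolet-damaged keratinocytes and the regression of the hair follicle, and loss of caspase-8 from the epidermis is known to give inflamed skin in mice.

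The promoters printed here were chosen because they belong to a pro-survival gene lower with every probe set (Bcl2), to the pro-death gene with the lowest ratio (Bcl2l11) and to a necroptosis gene that was higher (Ripk3). Each is the stretch of 250 bases before a RefSeq start site, read in the direction of transcription (GRCm38.p6). They are chr1:106714291-106714540 on the minus strand, chr2:128125788-128126037 on the plus strand and chr14:55788858-55789107 on the minus strand. Capitals mark matches, on either strand, to the GC box GGGCGG, the CCAAT box CCAAT, the FOXO motif TGTTTAC and the E-box CACGTG.
Bcl2: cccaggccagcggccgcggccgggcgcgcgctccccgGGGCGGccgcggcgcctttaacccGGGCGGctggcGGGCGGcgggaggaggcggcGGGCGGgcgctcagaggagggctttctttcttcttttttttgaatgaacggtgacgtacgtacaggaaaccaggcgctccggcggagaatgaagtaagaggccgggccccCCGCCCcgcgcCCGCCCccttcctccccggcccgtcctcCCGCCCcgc
Bcl2l11: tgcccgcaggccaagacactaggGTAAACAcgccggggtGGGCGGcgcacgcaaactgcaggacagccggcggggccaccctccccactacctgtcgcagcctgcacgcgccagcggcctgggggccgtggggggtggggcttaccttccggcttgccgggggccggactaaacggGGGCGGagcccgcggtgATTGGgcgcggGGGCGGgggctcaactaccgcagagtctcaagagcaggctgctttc
Ripk3: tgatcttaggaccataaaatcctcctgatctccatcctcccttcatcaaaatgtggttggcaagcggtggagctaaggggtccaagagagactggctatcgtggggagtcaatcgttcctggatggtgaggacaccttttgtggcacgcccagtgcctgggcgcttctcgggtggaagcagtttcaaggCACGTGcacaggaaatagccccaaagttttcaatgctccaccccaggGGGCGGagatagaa

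The Bcl2 stretch held 7 GC boxes and was 74.8% G or C. The Bcl2l11 stretch, 72% G or C, held 3 GC boxes, a CCAAT box 57 bases before the start and a FOXO motif 227 bases before it. FOXO factors are known activators of Bcl2l11. The Ripk3 stretch, 54% G or C, held a GC box 14 bases and an E-box 61 bases before the start. Promoters were found for 33 of the 37 genes, with 46 start sites. GC boxes lay in 26 of these 46 windows (56.5%), against 32.7% of 32851 promoter windows of the same length. FOXO motifs lay in 4 of 46 windows, of Bbc3, Bcl2l11 and Casp4, against 3.17% of all windows. The other motifs searched were the TATA box TATAAA (2 of 46, 12.4% of all), AP-1 TGANTCA (1 of 46, 6.75%) and CRE TGACGTCA (2 of 46, 1.55%). The CCAAT box was in 11 of 46 windows against 33.8% of all, and the E-box in 5 of 46 against 6.02%. A match describes the letters in these windows and is no evidence of binding.

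The values are MAS5 signals on a scale shared by the arrays through a common trimmed mean of 100.04. Background was set for each array from olfactory and vomeronasal receptor probe sets, at 19.9 for wild type and at 11.3 for the array labelled VEGF. Signals below it were raised to it, and a gene took its brightest probe set. In pairs of signals below, the wild-type value comes first. Krt14 (8990.5 and 8571), Krt5, Cd34, Itga6 and Epcam were well above background on both arrays. Ptprc, which encodes CD45 (14.4 and 17.3), Pecam1 (3.07 and 22.0) and Pdgfra (9.86 and 34.7), which encode the endothelial and fibroblast antigens of the sort, did not reach the wild-type background but passed that of the other array. Vegfa was lower on the array labelled VEGF, at 397 against 804, and its other probe set went the same way (log2 ratio -1.26). It is not known here whether these probe sets read the transgene, so they do not check the label, and every direction below follows the label. All log2 ratios put the array labelled VEGF over wild type.

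The cell death genes were mostly close to equal on the arrays. A fold or bound was obtained for 34 members. Bid and Casp12, 2 of them, were at least 2-fold higher on the array labelled VEGF, and 1, Bcl2l11, was lower by this rule. Over all 12194 genes with a fold or bound, 3.87% passed the rule upwards and 8.54% downwards, so the members' counts were near that background. The unequal floors raised the share downwards. With a common floor it was 5.12%, while the share upwards was again 3.87% and the same members passed. The median log2 ratio was 0.08 over the 34 members and -0.04 over all genes. The 8 pro-survival genes had a median of 0.15 with 5 above 0, and the 24 pro-death genes with a fold a median of 0.03 with 13 above 0. Both medians thus lay slightly above 0. A total of 33 members were above background on both arrays, Tnfrsf10b on 1 array, and Bik, a BH3-only gene, on neither by its brightest probe set (8.02 and 9.50). At a smaller size of 1.5-fold, 6 members were higher (11.6% of all genes) and 4 lower (20.0% of all genes). The 20.0% also includes bounds against the unequal floors.

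**Figure D1:**
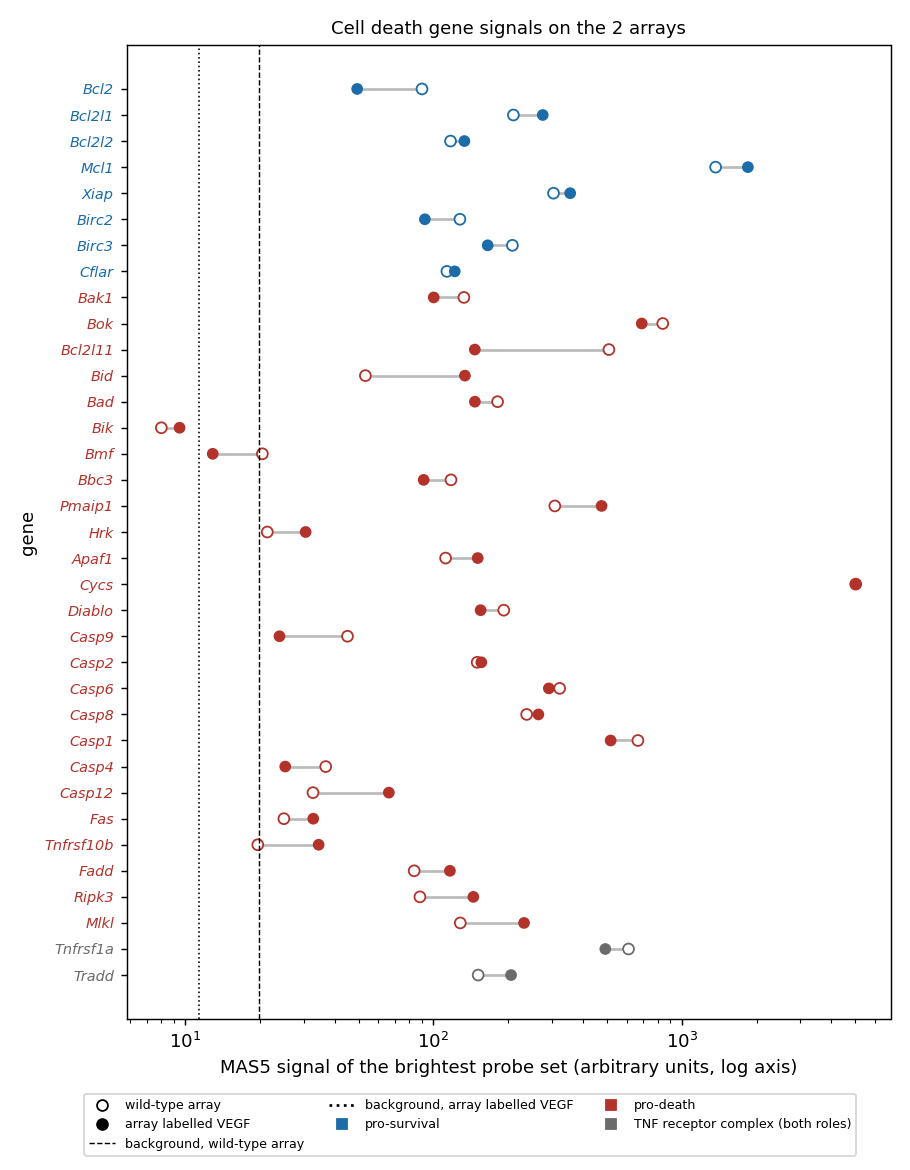
MAS5 signals of the brightest probe set of 35 cell death genes on a log axis, with open circles for the wild-type array, filled circles for the array labelled VEGF and vertical lines for the background of each array. The longest connecting lines are those of Bcl2l11 (509 to 147) and Bid (53.2 to 134), and the Cycs circles, at 5015 and 5019, lie on top of each other.

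Error was judged from how far probe sets of the same gene disagreed. The SD of the log2 ratio of a single probe set was 0.50 at low signal (up to 87.0), 0.42 at middle signal (up to 213) and 0.32 above that. It does not cover the spread between mice, tumours or sorts. Against 2 such SDs, Bid, Casp12 and Mlkl lay above and Bcl2l11 below, 3 and 1 of 34, where 6.45% of all genes lay above and 10.3% below. The 10.3% also includes bounds against the unequal floors. The ratios of 15 members were within 1 SD of 0.

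Among the guardians, Bcl2 was lower on the array labelled VEGF and the others were slightly higher. Bcl2, the founding inhibitor of mitochondrial apoptosis and needed by the melanocyte stem cells of mouse hair, had signals of 89.9 and 49.3, a log2 ratio of -0.87. Its other 4 probe sets gave 44.7 and 35.4, 41.7 and 25.4, 29.7 and 27.5, and 26.5 and 14.4. All 5 were thus lower on the array labelled VEGF, with log2 ratios from -0.88 to -0.11, and all were above background on both. Of 190 genes with 5 probe sets above background on both arrays, 22.6% also had all 5 lower, so this agreement was common. After loess normalization, which removes the dependence of the ratio on signal, the brightest Bcl2 probe set gave -0.74, and with an offset of 50 it gave -0.27. That offset setting, also cited for genes below, raised the median of the genes with a fold from -0.04 to 0.23. Loess raised ratios at low signal: Fas went from 0.39 to 0.74 and Casp9 from -0.91 to -0.59. The other 4 Bcl2 probe sets were not read after loess. Whether all 5 stay lower on that scale was not tested.

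Mcl1, a short-lived guardian, had signals of 1368 and 1846 (log2 ratio 0.43). Its 6 probe sets split evenly: 3 were higher, up to 0.95, and 3, all of the kind that can bind several transcripts, were lower, down to -0.26. Bcl2l1, which encodes Bcl-xL, had signals of 210 and 276 (0.39), and its other 3 probe sets were at or near background, between 0.60 and 14.1. Bcl2l2, which encodes Bcl-w, had 117 and 133 (0.19). Bcl2 was therefore the single guardian of 4 with a ratio below 0.

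The inhibitor of apoptosis genes and Cflar were all under 1.4-fold apart. Xiap, which binds and blocks active caspases, had signals of 304 and 355 (0.22), with other probe sets between -0.55 and 0.45. Birc2 and Birc3, neighbouring genes on chromosome 9 whose products are ubiquitin ligases of the tumour necrosis factor receptor complex, were both lower, at 128 and 92.4 (-0.47) and at 208 and 165 (-0.33, but 0.05 with the offset). Cflar, the catalytically inactive relative that restrains caspase-8, had 113 and 122 (0.10), and its other probe sets reached 0.48.

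The BH3-only genes held the largest ratios of the family, in both directions. Bid, which links caspase-8 to the mitochondria once it is cleaved, had signals of 53.2 and 134, 2.52-fold higher on the array labelled VEGF (log2 ratio 1.33). A further Bid probe set gave 22.6 and 37.0 (0.71), and the last 2.33 and 17.0, under the wild-type background, so all 3 readings were higher on the array labelled VEGF. Only 1.98% of all genes had a ratio as high. Bid was at least 2-fold higher in each of the 10 other settings of normalization, floor and probe set choice, with log2 ratios between 1.02 and 1.43. The floor settings, the stricter filter and leaving out probe sets that can bind several transcripts re-read the same pair of signals. They gave 1.33 again and add no separate support. The median over probe sets gave 1.02 and the offset 1.08.

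Bcl2l11, which encodes Bim, the BH3-only protein that responds to loss of growth factor and ERK signals, had signals of 509 and 147 by its brightest probe set, 3.47-fold lower on the array labelled VEGF (log2 ratio -1.79). Only 1.18% of all genes had a ratio as low. The other 4 probe sets did not show a change of this size, with signals of 155 and 118, 56.7 and 73.4, 20.8 and 22.9, and 16.3 and 21.1. They lay between -0.40 and 0.37, and the median over the probe sets was 0.09. The brightest probe set is of the kind that reads several transcripts of 1 gene. The Bcl2l11 difference thus rests on 1 probe set of 5.

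The other BH3-only genes differed less. Pmaip1, which encodes Noxa, the antagonist of Mcl1, had 308 and 475 (0.63). Hrk, a neuronal BH3-only gene, had 21.4 and 30.6 (0.51), close to background. Bbc3, which encodes Puma, had 118 and 91.3 (-0.37), and Bad 181 and 147 (-0.30), although the other Bad probe set gave 0.67. Bmf, whose product is tethered to the cytoskeleton, was near background at 20.5 and 12.9 (-0.66). When both arrays took the floor of 19.9 its ratio was -0.04.

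Of the membrane-opening effectors, Bak1 had signals of 133 and 100.3 (-0.40) and Bok, which acts apart from the guardians, 838 and 690 (-0.28). Both were lower by about 1 SD of a probe set, and with the offset Bok was at 0.10. In the apoptosome, Cycs, which encodes cytochrome c and also serves the respiratory chain, had 5015 and 5019, and its other probe sets above background 0.25 and 0.41. Apaf1, the scaffold, had 112 and 151 (0.43), with -0.14 from the other probe set. Diablo, which encodes the released antagonist of Xiap, had 192 and 155 (-0.31). Casp9, the initiator caspase, had 45.1 and 24.0 (-0.91), the lowest ratio after Bcl2l11. Its signal on the array labelled VEGF was low, the other 2 Casp9 probe sets were below background, and the ratio was -0.21 with the offset of 50.

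The measured apoptotic caspases were nearly equal. Casp8, the initiator of the receptor route, had 237 and 265 (0.16), Casp2 150.0 and 156 (0.06), and Casp6, an executioner caspase, 322 and 292 (-0.14). Casp8 and Cflar, its inhibitor, are neighbouring genes on chromosome 1.

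The inflammatory caspases are neighbouring genes on chromosome 9. By the brightest probe sets only Casp12 was higher, and that rested on 1 of its 2 probe sets. Casp1, which matures interleukin-1β, had 666 and 517 (-0.36), and Casp4, which senses bacterial lipopolysaccharide in the cell, 36.8 and 25.3 (-0.54). With the offset Casp1 was at 0.02 and Casp4 at -0.06. Casp12, a related caspase linked to stress of the endoplasmic reticulum in mice, had 32.7 and 66.2, 2.02-fold higher, just past the size rule (log2 ratio 1.02). The other Casp12 probe set gave 45.3 and 44.6 (-0.02), so the Casp12 difference was seen with 1 of 2 probe sets, and the median of the pair was 0.50.

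**Figure D2:**
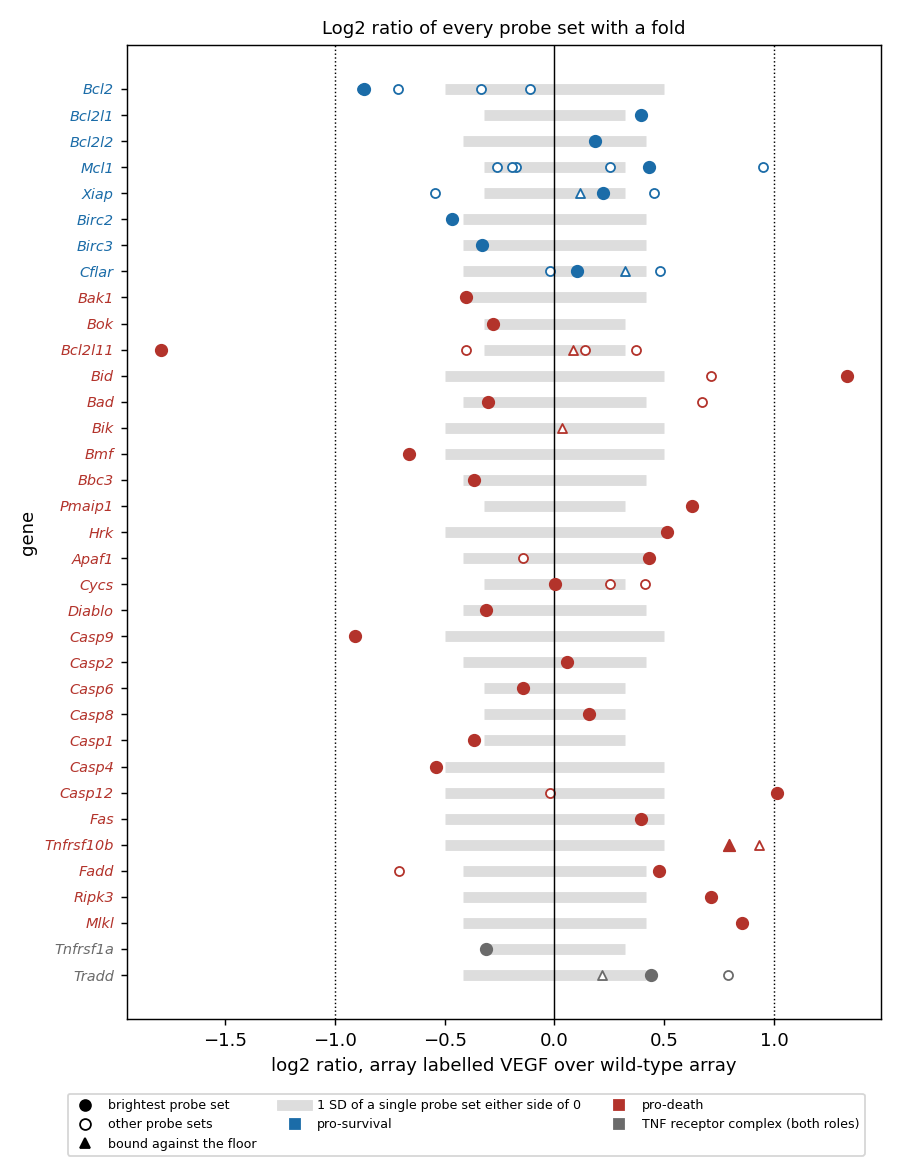
Log2 ratio (array labelled VEGF over wild type) for every probe set with a fold, with a row for each gene, filled symbols for the brightest probe set, open symbols for the others and triangles for bounds. Grey bars span 1 SD of a single probe set on either side of 0, and dotted lines mark 2-fold. The brightest Bcl2l11 probe set stands at -1.79 apart from its others, while the Bcl2 points all lie left of 0 and the Bid points right of it.

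Genes of the receptor and necroptosis route were mostly higher on the array labelled VEGF. This grouping of Fas, Tnfrsf10b, Fadd, Casp8, Cflar, Tnfrsf1a, Tradd, Ripk3 and Mlkl was made after the values were seen. Of these 9 genes, 8 had a ratio above 0, against 47.1% of all genes, with a median of 0.44 and 0 at least 2-fold apart. Among the 8, Cflar, Casp8 and Fas were within 1 probe-set SD of 0. The grouping leaves out Birc2 (-0.47) and Birc3 (-0.33), whose products belong to the tumour necrosis factor receptor complex, so the count depends on the choice of genes. The offset moved Tnfrsf1a to 0.07, and the median over probe sets moved Fadd to -0.12. Mlkl, the pore-forming executor of necroptosis, had signals of 128 and 232, 1.81-fold higher (log2 ratio 0.85). Ripk3, the kinase that phosphorylates Mlkl, had 88.2 and 145, 1.64-fold higher (0.71). Each was read by 1 probe set, so the floor, filter and probe set settings returned the same ratio. Only the offset, the normalizations and the centring moved it, with Mlkl between 0.83 and 0.96 and Ripk3 between 0.71 and 0.76 across the settings. This narrow range is therefore no measure of reliability. Among all genes, 5.53% had a ratio as high as Mlkl and 8.18% as high as Ripk3.

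The receptors Tnfrsf10b and Fas were near background. Tnfrsf10b, the TRAIL receptor of the mouse, had 19.6 and 34.5, at least 1.74-fold higher because the wild-type signal was below background. Its other probe set had 15.7 and 37.8, and likewise passed background only on the array labelled VEGF. After quantile or loess normalization the main probe set passed 2-fold, with log2 bounds of 1.15 and 1.18. Fas had 25.0 and 32.8 (0.39). The adaptor Fadd had 83.6 and 117 (0.48), with 39.3 and 24.0 (-0.71) from its other probe set. Tradd, the adaptor of tumour necrosis factor receptor 1, had 151 and 205 (0.44), and its other 2 probe sets were higher too. Tnfrsf1a, the receptor itself, was the exception at 610 and 492 (-0.31).

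**Figure D3:**
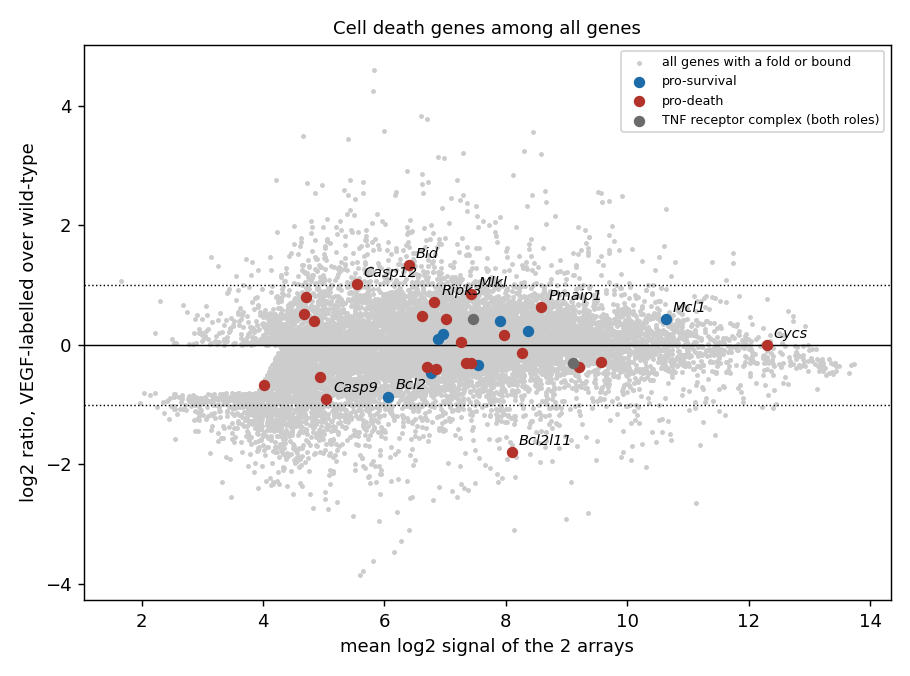
Log2 ratio against the mean log2 signal of both arrays for all 12194 genes with a fold or bound (grey) and for the cell death genes by role. Dotted lines mark 2-fold. Most members lie inside the dotted lines with the bulk of the genes, Bid and Casp12 lie above and Bcl2l11 below.

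Several members are also known targets of the transcription factor p53: Bbc3, Pmaip1, Bid, Apaf1, Fas and Tnfrsf10b. This group was likewise chosen after the values were seen. Other reported p53 targets were left out, with ratios on both sides of 0. Examples, also picked with their values known, are Casp6 (-0.14) and Zmat3 (0.66). The share below therefore describes the chosen genes only. Of these 6 genes, 5 had a ratio above 0 and Bbc3 did not, against 47.1% of all genes above 0. Among the 5, Fas was within 1 probe-set SD of 0, Tnfrsf10b was a bound, and the other Apaf1 probe set gave -0.14. Their median was 0.53, and only Bid was at least 2-fold higher, where 3.87% of all genes were.

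The further genes of the cell death pathways were a list of 58, of which 49 had a probe set of their own and 40 a fold or bound. Of the 40, the 2-fold rule was passed upwards by 2 and downwards by 2, with 20 above 0 and a median of 0.00. Aven, an inhibitor of Apaf1, had 88.0 and 195, 2.22-fold higher (log2 ratio 1.15). Htra2, a mitochondrial protease that antagonises Xiap once released, had 72.9 and 148, 2.03-fold higher, and its other probe set gave 0.94. Bnip3, a mitophagy gene induced by hypoxia, had 2494 and 813, 3.07-fold lower. Nlrp3, the sensor of the inflammasome that activates caspase-1, had 36.4 and 15.8, 2.30-fold lower at low signal.

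Some genes below 2-fold belong beside the routes above and were chosen after their values were seen. Pycard, the adaptor between Nlrp3 and caspase-1, had 1439 and 931 (-0.63). Its other 2 probe sets were below background on the array labelled VEGF and gave only bounds, of -1.29 and -1.17, against unequal floors. Casp1, described above, was at 0.02 with the offset. Gsdmd, the gasdermin gene cut by inflammatory caspases, had 25.9 and 27.9 (0.11). Tnfaip3, which encodes the ubiquitin editor A20 that restrains tumour necrosis factor signalling, had 411 and 781 (0.93), with 0.89 from its other probe set. Tnfrsf12a, the receptor for TWEAK, had 798 and 1376 (0.79), with 0.72 from its other probe set. Gsdme, a gasdermin gene of lytic cell death, had 36.5 and 71.7 (0.97). Birc5, which encodes the mitotic protein survivin, had 565 and 858 (0.60).

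**Figure D4:**
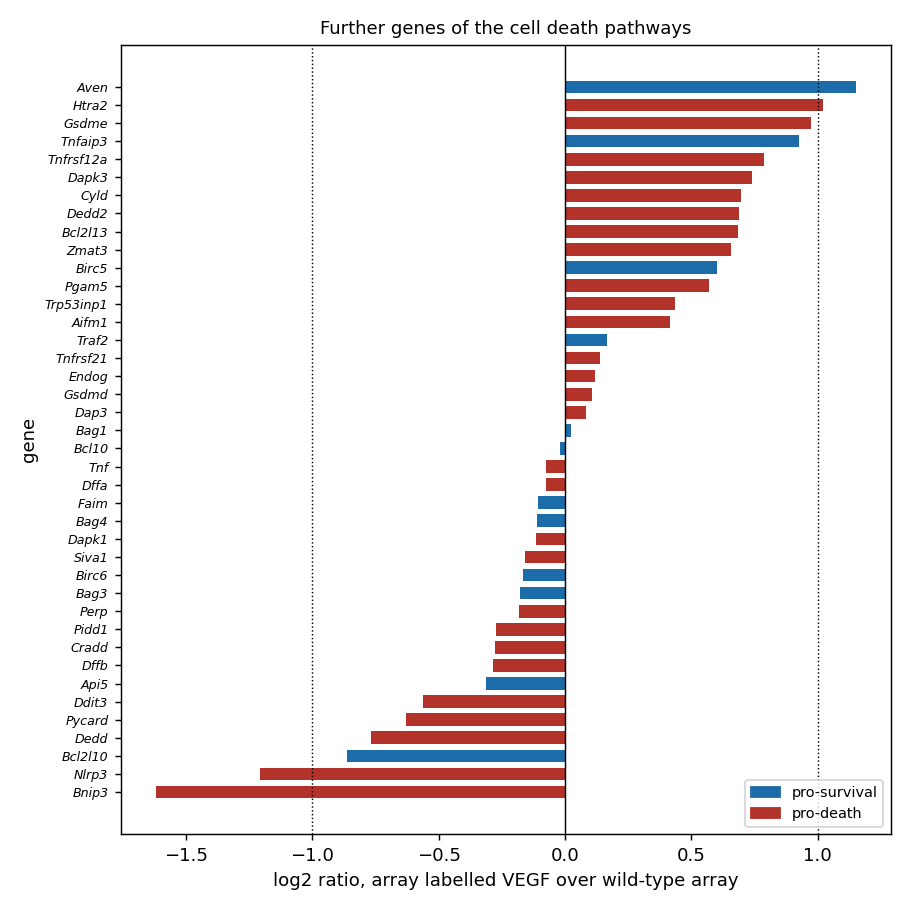
Log2 ratio (array labelled VEGF over wild type) for the 40 further pathway genes with a fold or bound, as bars coloured by role, with dotted lines at 2-fold. Aven and Htra2 pass the right line and Nlrp3 and Bnip3 the left one, and bars of both colours lie on both sides of 0. The bar of Bcl2l10 is a bound.

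Other cell types also express death receptors and caspases, and fewer cells of a type and less RNA per cell cannot be told apart in sorted pools. The 9 fibroblast markers summed to signals of 1234 and 2715, with Col1a2 and Col3a1 at least 2-fold higher and Thy1 at least 2-fold lower. The 13 measured leukocyte markers summed to 337 and 297, with Cd3e, Cd3g, Cd79a and Itgam below background on both arrays. Coro1a was 2.51-fold higher and Cd52 at least 2.61-fold lower. The median log2 ratio was -0.68 over the 8 with a fold or bound. Among them, Cd52, Fcer1g and Tyrobp gave bounds against unequal floors (19.9 and 11.3). Those floors place any marker seen only on the wild-type array below 0, so this median partly reflects the floors. The 9 endothelial markers summed to 200 and 236, with 0 at least 2-fold apart. The 9 keratinocyte markers summed to 33538 and 29049, with Krt15 at least 2-fold lower. The part of other cells in the values above was not tested.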

How the data were processed

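Gene expression was measured on 1 array per genotype. The deposited values are log2 signals, and MAS5 is the method named per the submitters' processing notes. Version and scaling target were not given in the sources used here, and no detection calls or probe-level data were used. Among 45101 probe sets, the platform annotation assigned 34945 to 1 gene (controls left out), 932 to several and 9211 to none. Only the first were used for genes. The identifiers of all 35 measured members matched the RefSeq gene table of GRCm38.p6. Probe sets ending in _x_at or _s_at can bind several transcripts.

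Log2 values were anti-logged and floored at the 90th percentile of 80 olfactory and vomeronasal receptor probe sets. A gene took its probe set of highest mean log2 signal. With 1 array above background the ratio is a bound; with none, or a bound under 1-fold, no fold was given. Precision is limited by the number of arrays, 1 per genotype, and no p-value was computed. The error is the SD of the difference between the 2 brightest probe sets of 4885 genes, divided by the square root of 2. The members and lists were chosen with earlier results of these data known. Genes named are all members, further pathway genes at least 2-fold apart, sort markers, and genes marked in the text as chosen after their values were seen. The calculation was run on simulated data, made from the wild-type array with added noise and set shifts in bright genes. That simulation lacked the unequal backgrounds of the arrays. It checks the calculation only, not the precision of the ratios. Tools were Python 3.11.15, pandas 2.3.3, numpy 2.4.6 and statsmodels 0.14.6 (loess, fraction 0.3). Promoter sequences are from RefSeq.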

Additional observations from a re-analysis of the deposited data

How the results depend on the processing

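The settings tried were each array's median as floor, a common floor, no floor (signals below 1 raised to 1), an offset of 50 (with medians matched), loess and quantile normalization, centred ratios, the median over probe sets, leaving out _x_at and _s_at probe sets, a stricter filter (above background on both arrays, mean signal 4 times background), and a 1.5-fold rule. The 2 members at least 2-fold higher became 1 (Bid) with the offset, with the median over probe sets and with the stricter filter, 3 with quantile and loess normalization (with Tnfrsf10b), and 6 at 1.5-fold. The 1 member at least 2-fold lower became 0 with the median over probe sets, where Bcl2l11 had a log2 ratio of 0.087, and 4 at 1.5-fold. The shares of all genes moved as well. At 2-fold, the share lower ranged from 0.41% with the offset to 15.2% without a floor, and was 5.12% with the common floor. The share higher ranged from 2.58% with the offset to 9.21% without a floor. The medians of pro-survival and pro-death members moved by over 0.1 with the offset alone, to 0.38 and 0.29. That setting also raised the median of the genes with a fold from -0.04 to 0.23, and relative to it the medians were 0.15 and 0.06. With the stricter filter the pro-death median was 0.04 below that of all genes, having been 0.07 above it. The offset turned 8 small ratios from below to above 0 (Bad, Bbc3, Birc3, Bok, Casp1, Casp6, Diablo and Tnfrsf1a), so these directions relative to 0 depend on the scaling. All 8 stayed below the median of 0.23 of the genes with a fold in that setting. The median over probe sets turned Bad, Bcl2l11 and Fadd. Quantile and loess normalization turned no member. Counting the tumour necrosis factor receptor complex as pro-death, an alternative chosen after seeing the data, left the pro-death median at 0.03. No paired analysis was possible because each genotype had 1 array. Signal over background limits Bmf, Casp4, Casp9, Casp12, Fas, Hrk and Tnfrsf10b, which were removed by the stricter filter.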

Other observations

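Probe sets that the annotation assigns to several genes were left out of the results above. The 3 probe sets shared by Bnip3l, a mitophagy gene related to Bnip3, and its pseudogene had signals of 1257 and 761, 563 and 372, and 241 and 137 on the wild-type array and the array labelled VEGF. All 3 were lower on the array labelled VEGF, with log2 ratios from -0.82 to -0.60. The 3 probe sets shared by the Bcl2a1 genes, pro-survival relatives of Bcl2 that are known from blood cells, were below background on both arrays. A probe set shared by Tnfsf12, the TWEAK ligand gene, and a read-through transcript had signals of 35.1 and 16.3, while Tnfrsf12a, its receptor gene, was higher on the array labelled VEGF. Another probe set, shared by Tnfsf12, Tnfsf13 and the read-through transcript, was below background on both arrays (3.57 and 10.0).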
